A study of Mus musculus with 19 samples.

Results

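The lymphomas compared here arose early in life in Eμ-Myc mice that carried either 1 deleted Bptf allele (Bptf+/Δ; Em-Myc, called HET) or 2 intact alleles (Bptf+/+; Em-Myc, called WT). Eμ-Myc is a Myc transgene placed under the enhancer of the immunoglobulin heavy chain locus, which is active in B cells, and every mouse of the series carried it, controls included. Of the 19 tumours of the series, 9 entered the comparison. They were 3 HET tumours with onset at 8 to 12 weeks and 6 WT tumours with onset at 9 to 17 weeks, chosen by genotype and onset class as the labels give them. One further early HET tumour, HET_early_2 (onset at 13 weeks), was left out because its RNA was dominated by cartilage and muscle transcripts, and it serves only as a check. The 5 late WT tumours (28 to 76 weeks) and 4 late HET tumours (30 to 66 weeks) are used only to place the early differences. The sources used here do not state the strain, the exons removed in the deleted allele or the body site of each tumour. Libraries are named by genotype, onset class and a number that follows accession order.

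BPTF is the largest subunit of NURF, an ATP-dependent complex that slides nucleosomes. It binds methylated histone H3 tails through a PHD finger and acetylated histones through a bromodomain, and it has been described as a cofactor that helps MYC reach its target genes. MYC and its partner MAX bind E-box DNA, most strongly the palindrome CACGTG, and drive ribosome production, nucleotide synthesis and cell division. The comparison asks how early MYC-driven B-cell tumours differ when 1 Bptf allele is missing.

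Expression is given as the deposited normalised read count, in which 1 value applies to a whole gene and is not corrected for gene length. Recovered depth was 9753478 to 12497732 reads in the WT libraries and 10477313 to 11546949 in the 3 HET libraries. Pax5, the transcription factor that defines B-lineage cells, lay between 2909 and 6309 in WT and between 4070 and 4702 in HET, against 30.6 in HET_early_2. Xist was high in 4 of the 6 WT and 2 of the 3 HET libraries, so both sexes were in both groups. WT_early_6 carried salivary transcripts, with Bpifa2 at 5.07% of its reads, and WT_early_5 carried cartilage transcripts. HET_early_3 carried skeletal muscle transcripts, with a mean of 8.80 on the log2(value + 1) scale over the muscle list against 2.49 to 6.25 in WT. Such differences between bulk tumours cannot separate fewer cells of a type from less RNA per cell.

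Bptf itself was lower in the HET tumours. Normalised counts in WT were 1665 at the lowest, 2065 at the median and 2480 at the highest, and those in HET_early_1, HET_early_3 and HET_early_4 were 1551, 1277 and 1521. All 3 HET tumours thus lay below all 6 WT tumours, and HET_early_2 lay there too, at 1432. The group means were 2041 ± 317 (SD, n = 6) and 1450 ± 151 (SD, n = 3). The difference was -0.48 on the log2 scale (SE 0.148), with a two-sided exact permutation p of 0.0238, the smallest that 3 tumours against 6 can give. Over all genes the same difference had a limma adjusted p of 0.366. The authors' deposited table, which the sign of its values places as HET over WT with all 4 early HET tumours, lists -0.51 for Bptf with an adjusted p of 0.0526.

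Bptf lies on chromosome 11, on the minus strand, from 107033081 to 107132127 in GRCm38 (ENSMUSG00000040481.17). The 200 bases before its RefSeq start site (GRCm38.p6, chr11:107132148-107132347, minus strand, 5′ to 3′) are shown because they hold the MYC-MAX letters in capitals, with 37 bases between them and the start.

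Bptf: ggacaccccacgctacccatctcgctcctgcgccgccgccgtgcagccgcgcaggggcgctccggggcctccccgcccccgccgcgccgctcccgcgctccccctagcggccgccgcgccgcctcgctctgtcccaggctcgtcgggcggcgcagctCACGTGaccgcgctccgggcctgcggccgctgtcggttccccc

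The motif CACGTG was found in the 250 bases before the start in 6.86% of the 27025 genes with a RefSeq promoter. Among the genes compared here that had such a promoter, the share was 9.75%. A gene counted if any of its promoters held the motif. The motif reads the same on both strands and was searched with no other motif.

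Myc, from the transgene and the endogenous locus together, differed less between the groups than between tumours of the same group. WT values were 6099 at the lowest, 9443 at the median and 16555 at the highest. The HET tumours had 6488, 9190 and 7147, all inside the WT range. The difference was -0.38 (SE 0.308), with an exact permutation p of 0.381. It was -0.23 without WT_early_3 (exact permutation p 0.571) and -1.03 with HET_early_2, which stood at 1232 (exact permutation p 0.152).

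Across the genome few genes separated the groups beyond the spread between tumours. Of 14525 genes kept, 6 passed limma's Benjamini-Hochberg adjusted p of 0.05 (0.0413%), 5 higher in HET (0.0344%) and 1 lower (0.00688%). An unadjusted p below 0.05 was reached by 1315 genes (9.05%), 756 higher (5.2%) and 559 lower (3.85%). For 361 genes all 3 HET tumours lay above all 6 WT tumours (2.49%), and for 347 they lay below (2.39%), which makes 708 genes without overlap (4.87%). Differences were positive in 7289 genes (50.2%). The median difference over all genes was 0.00. On recovered reads, edgeR called 2 genes (0.0138%), Klra1 and Bfsp2, while DESeq2 called 120 higher (0.86%) and 76 lower (0.544%), 196 in all (1.4%), among them the 6 limma calls. The limma calls were fragile: none passed without HET_early_1, without HET_early_4, with HET_early_2 included or with onset in weeks as a covariate. The numbers of genes at an unadjusted p below 0.05 were then 674, 1160, 1709 and 972, and with onset as a covariate the smallest adjusted p was 0.0502. Without WT_early_5, 40 genes passed. This tumour held cartilage transcripts and also had the highest level of pro-B and pre-B markers among the WT tumours. The cause of the rise was not tested. The authors' deposited table has 304 genes under an adjusted p of 0.05 in its early comparison, 240 of them above 0 and 64 below.

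**Figure D1:**
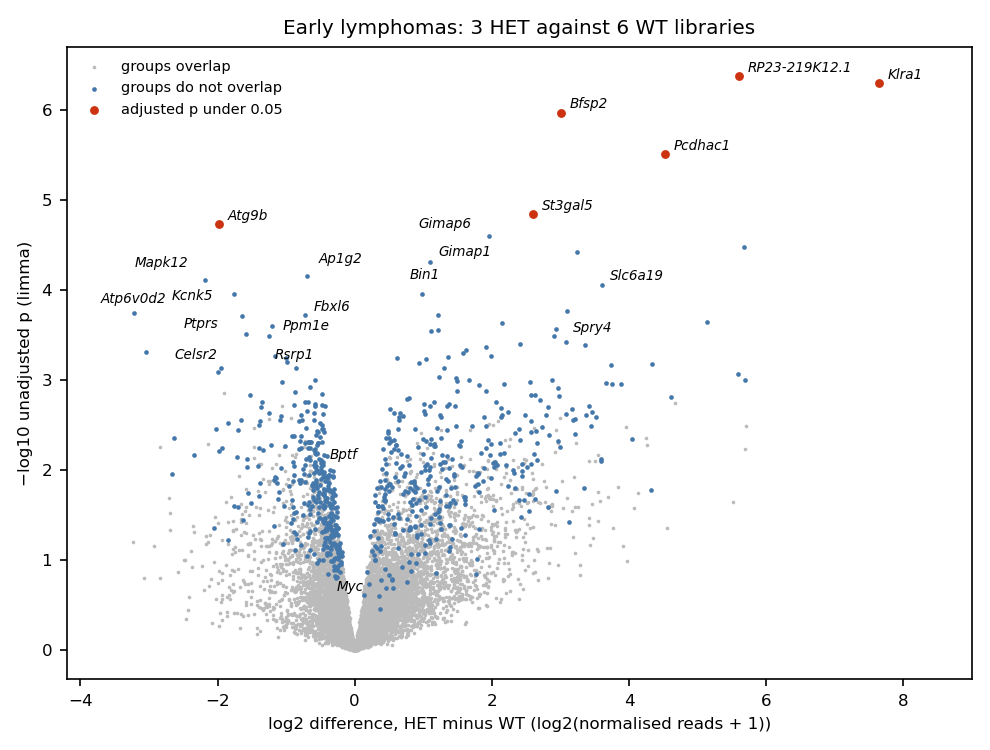
Each point is 1 of the 14525 genes. The horizontal axis is the difference of HET minus WT means of log2(normalised reads + 1), the vertical axis is −log10 of the unadjusted limma p, and blue points are genes whose 3 HET and 6 WT values do not overlap. The 6 red points passed the adjusted p, with 5 to the right and Atg9b alone to the left.

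Klra1 rose most. It encodes Ly49A, an inhibitory receptor of natural killer cells that binds MHC class I. WT tumours had normalised counts of 0 at the lowest, 0 at the median and 1.84 at the highest, and the 3 HET tumours had 257.0, 101.2 and 813.3. No HET tumour came near a WT tumour, and the HET tumours differed widely among themselves. In reads this was 1366 in HET against 4 in WT, a ratio of 675 after scaling (exact 95% counting interval 263 to 2480, counting error only). The log2 difference was 7.65 (SE 0.691, limma adjusted p 0.0036). The gene lies on chromosome 6 among near-identical Klra paralogues, so its reads may in part belong to a neighbour. The other 10 Klra genes in the table reached at most 12.9, for Klra2, in the 9 tumours.

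Other genes of natural killer and cytotoxic cells overlapped between the groups. Of 9 cytotoxic markers kept, 8 were positive, with a median of 1.08. Of the 9, 0 had non-overlapping groups, against 2.49% of all genes higher and 2.39% lower. Their mean log2 level was 1.92 to 4.55 in WT and 3.79 to 4.27 in HET. Klrb1c, which encodes the NK1.1 receptor, stood at 419 in HET_early_1 but at 5.71 and 1.68 in HET_early_3 and HET_early_4. HET_early_2, which had almost no B-cell transcripts, had no Klra1 reads.

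Bfsp2 also rose. It encodes phakinin, an intermediate filament protein of the eye lens. WT values were 41.1, 61.3 and 89.6 (lowest, median, highest) and HET values were 556, 332 and 650. The lowest HET tumour was well above the highest WT tumour. The difference was 3.01 (SE 0.295, limma adjusted p 0.0051).

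St3gal5, which encodes the sialyltransferase that makes the ganglioside GM3, rose as well. It had 22.3, 36.5 and 65.7 in WT and 252, 174 and 298 in HET, again without overlap. The difference was 2.60 (SE 0.338, limma adjusted p 0.041). HET_early_2 was higher still, at 473.

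Pcdhac1, a clustered alpha-protocadherin that mediates homophilic adhesion in neurons, was at 0 reads in all 6 WT tumours. The HET tumours had 25.1, 13.9 and 30.3, and HET_early_2 had 1.33. Its 80 HET reads against the floor of 3 reads over the WT group made it at least 52.7-fold higher, with a limma adjusted p of 0.0111. It shares its span with the other alpha-protocadherin genes, whose reads cannot be fully told apart from its own. An unnamed locus, RP23-219K12.1, was also at 0 in all WT tumours and had 55.9, 26.1 and 74.1 in HET, which makes it at least 118.5-fold higher (180 reads, limma adjusted p 0.0036). It falls outside the naming rule as a clone name and is given because it is 1 of only 6 calls.

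Atg9b fell, and was the only gene called in that direction. It encodes a transmembrane protein of autophagosome formation. WT values were 73.7, 109.0 and 154.7, and the 3 HET values were nearly equal, at 27.0, 27.8 and 26.9. HET_early_2 stood at 91.7, inside the WT range. The difference was -1.98 (SE 0.264, limma adjusted p 0.0449). Its end shares 294 bases with Nos3 on the opposite strand, and the sources used here do not state whether reads were counted by strand. Nos3, the endothelial nitric oxide synthase, was at 12.0 to 73.9 in WT and 26.1 to 35.4 in HET.

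**Figure D2:**
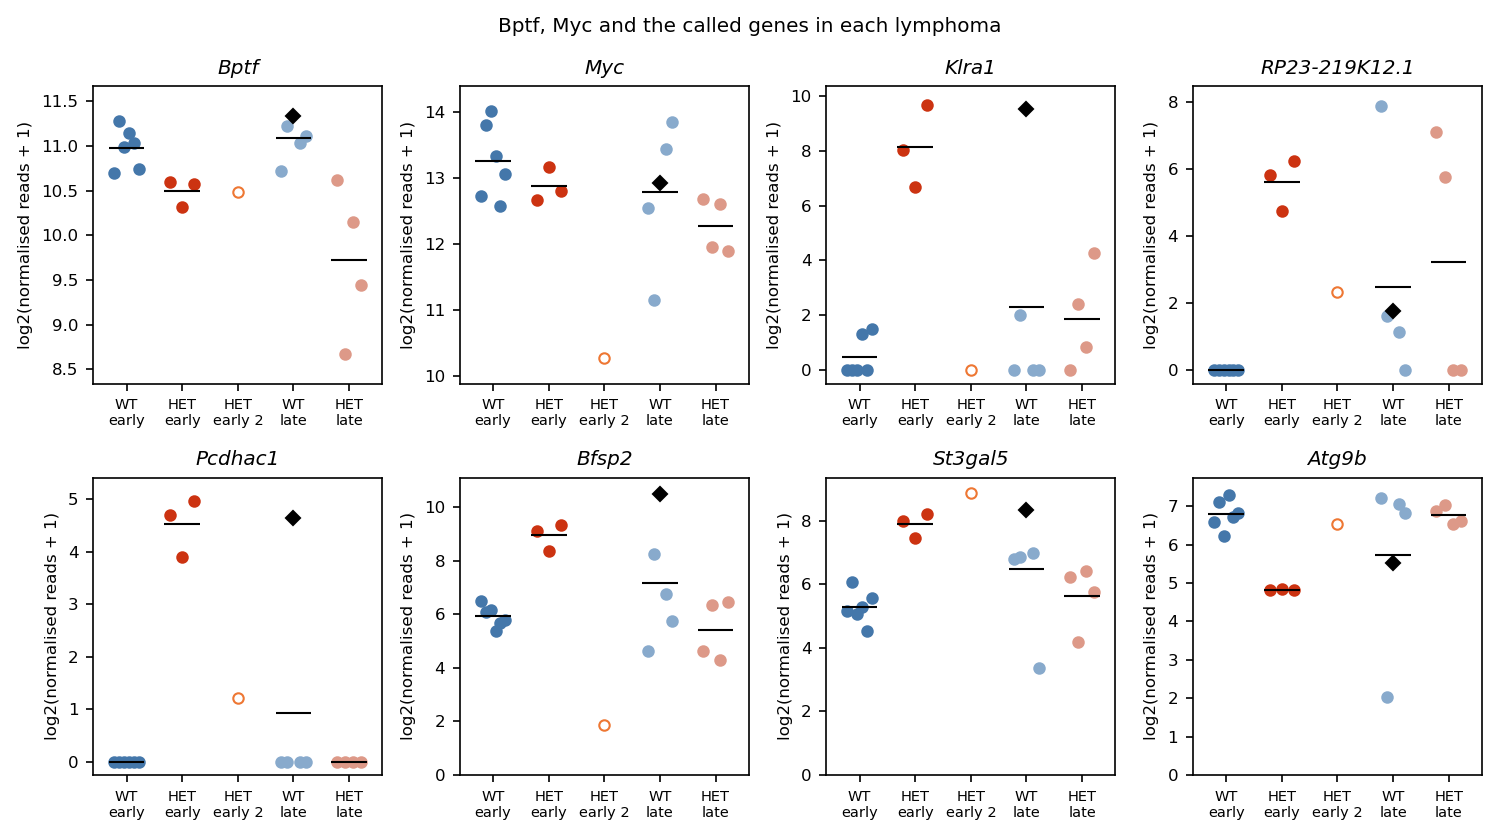
Points are single tumours on a log2(normalised reads + 1) axis for Bptf, Myc and the 6 called genes, horizontal bars are group means, the open circle is HET_early_2 and the black diamond is WT_late_3. In WT_late_3, Klra1 and Pcdhac1 lie within the range of the 3 early HET tumours and Bfsp2 and St3gal5 above it, and Bptf in WT_late_3, at 2586, is above every early HET tumour.

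The 200 bases before the RefSeq start of 4 of the called genes are given beside that of Bptf, and none of these 4 holds CACGTG. Of the 20 genes named by rank, 14 had a RefSeq promoter, and 2 of those 14 held the motif in the 250 bases before the start. The coordinates are GRCm38.p6, and each sequence runs 5′ to 3′ on the gene's strand. They are Klra1 at chr6:130386875-130387074 (minus), Bfsp2 at chr9:103449177-103449376 (minus, inside an intron of the longer annotated transcript), St3gal5 at chr6:72097408-72097607 (plus) and Atg9b at chr5:24392144-24392343 (minus).
Klra1: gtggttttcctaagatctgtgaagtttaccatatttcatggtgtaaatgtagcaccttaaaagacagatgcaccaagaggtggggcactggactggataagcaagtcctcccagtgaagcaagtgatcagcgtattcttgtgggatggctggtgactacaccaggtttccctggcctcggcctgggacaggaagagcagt
Bfsp2: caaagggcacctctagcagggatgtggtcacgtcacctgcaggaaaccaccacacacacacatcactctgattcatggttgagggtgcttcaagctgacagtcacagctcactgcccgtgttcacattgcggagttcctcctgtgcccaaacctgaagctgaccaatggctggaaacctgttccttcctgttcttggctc
St3gal5: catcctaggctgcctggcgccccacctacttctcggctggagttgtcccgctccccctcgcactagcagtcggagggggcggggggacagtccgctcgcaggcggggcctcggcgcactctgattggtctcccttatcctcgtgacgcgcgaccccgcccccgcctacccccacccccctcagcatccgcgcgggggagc
Atg9b: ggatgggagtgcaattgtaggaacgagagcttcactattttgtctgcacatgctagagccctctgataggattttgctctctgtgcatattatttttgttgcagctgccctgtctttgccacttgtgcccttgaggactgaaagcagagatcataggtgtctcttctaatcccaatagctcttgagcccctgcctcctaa

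Their GC content ran from 47% for Atg9b to 72.5% for St3gal5, against 81.5% for Bptf. Among genes with a promoter whose groups did not overlap, the motif was in 8.33% of the 252 higher in HET and in 11.9% of the 253 lower. Both shares were near the 9.75% of all genes compared. No match says only that these letters are not in this window.

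Below the threshold, the higher ranks were filled by 2 Gimap genes, which encode GTPases of lymphocyte survival. Gimap6 stood at 252, 336 and 506 in WT and at 1585, 1500 and 974 in HET, a difference of 1.96 with a limma adjusted p of 0.0518. Gimap1 stood at 246, 289 and 354 in WT and at 566, 724 and 586 in HET, a difference of 1.10 with an adjusted p of 0.0708. Neither passed, though in neither did the groups overlap. The whole family of 8 sits together on chromosome 6, from 48647234 to 48770851. It was examined after these 2 values were seen, and all 8 members had positive differences, with a median of 1.44. In 4 of them, Gimap1, Gimap4, Gimap5 and Gimap6, the groups did not overlap, against 2.49% of all genes, and 2 of these 4 are the genes that prompted the look. Gimap4 had the widest spread of these, with 1896, 794 and 385 in HET against 58.0 to 264.5 in WT.

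Other genes ranked higher were Slc6a19, Bin1 and Spry4. Slc6a19, a neutral amino acid transporter of gut and kidney, had at most 4.59 in WT and 27.0, 32.7 and 21.9 in HET, with an adjusted p of 0.0968. Bin1, a membrane-bending protein that also binds the MYC amino terminus and has tumour suppressor activity, had 831, 1008 and 1106 in WT and 2154, 2323 and 1447 in HET. Spry4, a feedback inhibitor of receptor tyrosine kinase signalling, had 9.83, 24.3 and 44.4 in WT and 427, 104 and 218 in HET. The limma adjusted p-values of Bin1 and Spry4 were 0.106 and 0.14. None of the 3 overlapped between groups and none passed limma's adjusted p.

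The other genes ranked lower did not pass limma's adjusted p. Ap1g2, a gamma subunit of the AP-1 clathrin adaptor, was at 658, 700 and 734 in WT and at 394, 429 and 471 in HET, a difference of -0.70 with an adjusted p of 0.0908. Mapk12, the p38 gamma stress kinase, was at 199, 288 and 478 in WT and at 94.1, 68.6 and 36.2 in HET, a difference of -2.18 with an adjusted p of 0.0931. Ptprs, a receptor phosphatase, was at 1238, 2020 and 2690 in WT and at 413, 989 and 564 in HET, a difference of -1.65 with an adjusted p of 0.14. In all 3 genes the groups were apart without passing limma's adjusted p.

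Atp6v0d2, a proton pump subunit known from osteoclasts and macrophages, was at 63.2, 149.1 and 270.2 in WT and at 14.0, 5.71 and 36.2 in HET. Its difference of -3.22 was the largest of the 10 lower genes, but HET_early_2 stood at 1975 and the adjusted p was 0.14. Kcnk5, a potassium channel, differed by -1.75, Fbxl6, an F-box protein, by -0.72, Ppm1e, a phosphatase, by -1.21, and Celsr2, an adhesion receptor, by -1.59. Their adjusted p-values ran from 0.106 to 0.163. Rsrp1, an arginine- and serine-rich protein, completed the 10.

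Genes of splicing had almost only negative differences. The list holds CLK kinases, SR proteins and genes linked to them, which phosphorylate or build the machinery that chooses splice sites. All 25 were kept, 23 had negative differences, and in 9 of them (against 2.39% of all genes) the HET tumours lay below every WT tumour. The median difference was -0.28, against 0.00 over all genes. No member passed limma's adjusted p, 9 were lower at an unadjusted p under 0.05 (3.85% of all genes), and DESeq2 called 2 of them lower (0.544% of all genes). The list came from earlier knowledge of these data, so its direction is a description.

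Rsrp1 had the largest difference of the list. It was at 2378, 3445 and 4456 in WT and at 1042, 1356 and 2070 in HET, a difference of -1.25 with an adjusted p of 0.163. Srsf7, an SR protein, was at 3062, 3495 and 3834 in WT and at 2557, 2514 and 2666 in HET, a difference of -0.43. Ccnl2, a cyclin that sits with the splicing machinery, was at 1114, 1340 and 1536 in WT and at 729, 987 and 1023 in HET, a difference of -0.54. The groups did not overlap in any of these genes. Clk1, a kinase of SR proteins, differed by -0.47, Luc7l3 by -0.39, Srsf6 by -0.32, Luc7l by -0.32, Ddx39b by -0.26 and Srsf3 by -0.23, all without overlap.

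The mean log2 level of the list was 11.02 to 11.13 over the 6 WT tumours and 10.70, 10.77 and 10.90 in the HET tumours. The WT tumours lay close together and all HET tumours lay below them. HET_early_2 was at 10.25. Leaving out any 1 tumour, or adding HET_early_2, kept the list's median between -0.47 and -0.22.

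Subunits of NURF and related ISWI complexes had small differences, with a median of -0.08 over the 13 kept. The groups did not overlap in 1 of them, Bptf itself, where 2.39% of all genes were lower without overlap. Smarca5, the SNF2H ATPase, was at 1734, 1927 and 2464 in WT and at 2249, 1945 and 1770 in HET. Rbbp4, a histone-binding subunit, differed by 0.04 and Rbbp7, its paralogue, by -0.13. Cecr2, a bromodomain protein that pairs with the same ATPases outside NURF, was at 1316, 3137 and 5622 in WT and at 1141, 1817 and 1725 in HET. Its difference of -0.93 was larger than that of Bptf, but the groups overlapped and the adjusted p was 0.487. The 22 SWI/SNF subunits had a median of -0.05 and 0 genes without overlap.

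MYC target genes showed small negative differences that did not pass. Of 30 ribosome biogenesis targets, 23 were negative, with a median of -0.14. The groups did not overlap in 1 of the 30, Gnl3, where 2.39% of all genes were lower without overlap. Gnl3, which encodes the nucleolar GTPase nucleostemin, was at 2700, 3341 and 4680 in WT and at 2341, 2280 and 2472 in HET. Its difference was -0.58 with an adjusted p of 0.336. All 3 HET tumours were below the lowest WT tumour. Ncl, which encodes nucleolin, differed by 0.02.

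Targets in nucleotide and polyamine synthesis had a median of -0.07 over 20 genes, with 0 apart between groups. Odc1, the first enzyme of polyamine synthesis, differed by -0.16 and Shmt2, a mitochondrial folate enzyme, by -0.34. The motif CACGTG lay before the start of 5 of 18 of these genes with a RefSeq promoter (27.8%) and of 1 of 25 ribosome biogenesis targets (4%).

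Within the MYC and MAX network, Mxi1, a MAX partner that opposes MYC, was at 520, 667 and 785 in WT and at 482, 440 and 477 in HET. It differed by -0.49 without overlap, with an adjusted p of 0.366. Mycl, a MYC paralogue expressed at low level, was at 4.27 to 41.8 in WT and 26.9 to 44.1 in HET, and the groups overlapped.

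Cell cycle genes also had mostly negative differences. Of 26 DNA replication genes 22 were negative, with a median of -0.18, and of 25 mitosis genes 23 were negative, with a median of -0.15. No member passed the adjusted p. Prim1, the catalytic primase subunit, was at 717, 896 and 1118 in WT and at 601, 642 and 647 in HET. Cdc6, which loads the MCM helicase, was at 726, 807 and 934 in WT and at 656, 513 and 642 in HET. Birc5, which encodes survivin, was at 1214, 1341 and 1486 in WT and at 1049, 1024 and 1144 in HET. These 3 were the members whose groups did not overlap, with differences of -0.54, -0.45 and -0.32. The shares without overlap, 2 of 26 and 1 of 25, compare with 2.39% over all genes.

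**Figure D3:**
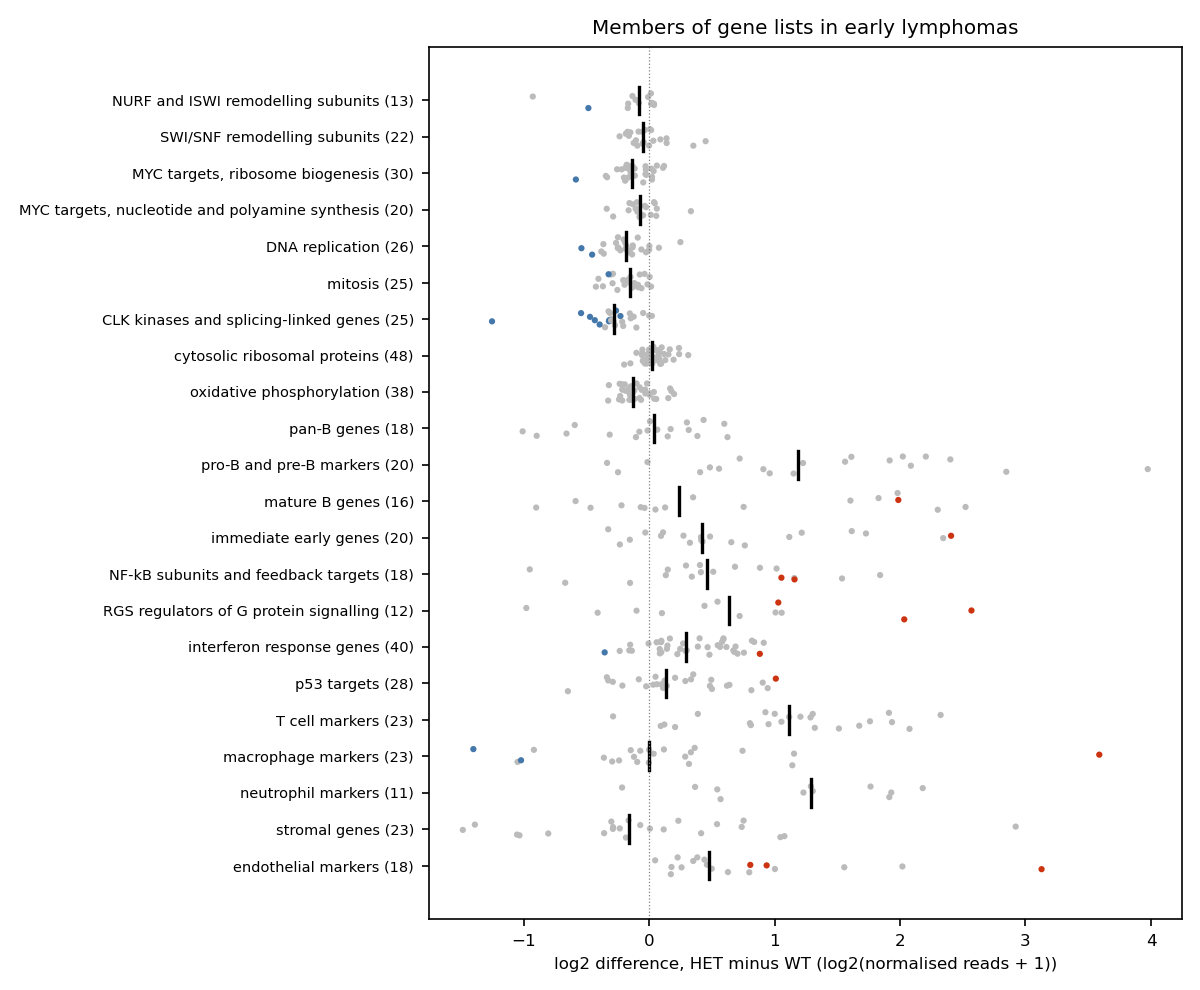
Each point is a gene of the list named at the left, with the number kept in brackets, placed by its difference of HET minus WT on the log2(normalised reads + 1) scale, and black bars are list medians. Blue points (lower in HET) and red points (higher) are genes whose groups do not overlap, with 9 blue points in the splicing list and 3 red points each in the RGS and endothelial lists.

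The ARF, INK4 and p53 pathway, which is often lost in Eμ-Myc lymphomas, varied between single tumours of both genotypes. Cdkn2a, which encodes ARF and INK4a, was at 59.1 to 68.0 in 4 WT tumours and at 87.1 in another, but at 2232 in WT_early_3. In HET it was at 116, 2012 and 163. Trp53 was at 461 in WT_early_3 and between 1693 and 2515 in the other 8 tumours. So 1 tumour of each genotype had high Cdkn2a, and the WT one also had the lowest Trp53. Of 28 p53 targets, 21 were positive with a median of 0.13. Only Fas, a death receptor, had no overlap (1 of 28, against 2.49% of all genes higher without overlap). Fas was at 9.57 to 23.1 in WT and 26.9 to 37.2 in HET. Cdkn1a and Mdm2 differed by -0.21 and -0.08.

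Bcl2, the anti-apoptotic protein that cooperates with MYC in lymphoma, was at 41.8, 84.6 and 135.7 in WT and at 168, 215 and 224 in HET. The groups were apart, with a difference of 1.25 and an adjusted p of 0.331. The other 13 members of its family that were kept overlapped. So 1 of 14 was higher without overlap, against 2.49% of all genes.

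Genes of the B-cell stages did not pass limma's adjusted p either. The 18 pan-B genes had a median of 0.04, with 10 positive and 8 negative. Cd79a, a signalling chain of the B-cell receptor, was at 4089, 7147 and 8868 in WT and at 3958, 5283 and 3591 in HET, and Pax5 differed by -0.01. Of 20 pro-B and pre-B markers 17 were positive, with a median of 1.19, but all overlapped. Values spread widely between tumours, among the WT tumours for Rag1 and Rag2 and among the HET tumours for Igll1. Rag1, which forms the V(D)J recombinase with Rag2, ran from 145 to 4021 in WT and was at 3266, 2804 and 4452 in HET. Rag2 ran from 25.4 to 387 in WT and was at 351, 402 and 626 in HET. Igll1, a surrogate light chain gene, was at 3936 in 1 WT tumour and at 1072, 7.35 and 34.5 in HET.

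Among genes of later stages, Irf4 was at 1003, 1320 and 2082 in WT and at 2687, 3396 and 2300 in HET. It encodes a transcription factor of B-cell activation and plasma cells, and its groups did not overlap. The difference was 1.04 with an adjusted p of 0.201. In HET_early_2, which had almost no B-cell transcripts, Irf4 was at 31.9. Of the 15 germinal centre and plasma cell genes kept, 7 were positive and 8 negative, with a median of -0.14. Irf4 and Fas were the 2 higher without overlap, against 2.49% of all genes, and 0 were lower without overlap, against 2.39%. DESeq2 called only Irf4, against 0.86% of all genes called higher. Derl3 and Fkbp11, of the same list, differed by -1.40 and -1.66 and overlapped. Itgal, the LFA-1 integrin chain, was at 81.8, 311.5 and 430.8 in WT and at 1093, 1035 and 578 in HET. Its groups did not overlap, and its adjusted p was 0.336. Of the 16 homing and egress genes, 2 were higher without overlap, against 2.49% of all genes.

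Signal-induced genes had mostly positive differences, none of which passed limma's adjusted p. DESeq2 called 1 gene higher in each of the NF-kB, RGS, immediate early and interferon lists, against 0.86% of all genes. These were Relb, Rgs16, Egr1 and Gbp3. Of 18 NF-kB subunits and feedback targets 15 were positive, with a median of 0.46, and 6 were higher at an unadjusted p under 0.05, against 5.2% of all genes. Relb, the subunit of the alternative pathway, was at 69.4 to 146.9 in WT and at 191, 370 and 152 in HET. Nfkbie, an NF-kB inhibitor induced by it, was at 93.1, 132.7 and 200.3 in WT and at 231, 456 and 204 in HET. In both, HET_early_4 lay only just above the highest WT tumour and HET_early_3 was the highest. Their differences were 1.16 and 1.05. Tnfaip3, the A20 brake on the pathway, differed by 1.54 and overlapped.

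Of 12 RGS genes kept, which switch off G protein signals, 9 were positive, with a median of 0.63, and 3 had no overlap, against 2.49% of all genes. Rgs16 was at 13.0, 38.4 and 146.8 in WT and at 327, 169 and 225 in HET, a difference of 2.57 with an adjusted p of 0.284. Rgs2 was at 100.2, 211.7 and 254.5 in WT and at 550, 407 and 268 in HET. Rgs18 stayed low in both groups, at 14.7 or less in WT and 15.8 to 23.7 in HET. The mean level of the list was 5.64 to 6.45 in WT and 6.49 to 6.94 in HET on the log2 scale, so all HET tumours lay above all WT tumours, HET_early_4 by the least.

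Of 20 immediate early genes 16 were positive, with a median of 0.42. Only Egr1 had no overlap (1 of 20, against 2.49% of all genes higher without overlap). Egr1, a zinc-finger factor induced within minutes by ERK signals, was at 34.8, 65.7 and 162.9 in WT and at 663, 233 and 357 in HET, a difference of 2.41 with an adjusted p of 0.184. Fos and Jun differed by 0.42 and 0.49 and overlapped.

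Interferon response genes were positive in 34 of 40, with a median of 0.29. Gbp3, a guanylate-binding protein, was the 1 gene higher without overlap, at 77.4, 113.0 and 147.9 in WT and at 171, 249 and 202 in HET. Stat2, a mediator of interferon signals, was the 1 gene lower, at 350, 374 and 479 in WT and at 289, 313 and 325 in HET. Their limma adjusted p-values were 0.308 and 0.513. The shares without overlap, 1 of 40 in each direction, were near the 2.49% higher and 2.39% lower of all genes. Of 14 heat shock and stress genes kept, 12 were negative, with a median of -0.10. In that list 1 gene was lower without overlap, against 2.39% of all genes. DESeq2 called 1 of them lower, against 0.544% of all genes. Gadd45b, a stress-induced gene of the MAP kinase pathways, was at 236, 361 and 599 in WT and at 49.4, 98.8 and 171.7 in HET. The groups were apart, with a difference of -1.94 and an adjusted p of 0.219.

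Markers of other cell types differed in part between the groups, and none of them passed limma's adjusted p. DESeq2 called 1 endothelial marker, Pecam1, and 2 skeletal muscle genes higher, against 0.86% of all genes. It called 1 salivary gland gene lower, against 0.544% of all genes. T cell markers were positive in 22 of 23, with a median of 1.12 and 0 without overlap. Their mean log2 level was 2.88 to 6.94 in WT, highest in WT_early_6, and 4.98, 5.82 and 5.91 in HET. Cd3e, the defining T cell receptor chain, reached 88.2 in WT and 7.45, 30.2 and 31.1 in HET. Cd4 was higher than these levels of Cd3e, at 71.7 to 986.0 in WT and 897 to 1230 in HET.

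Endothelial markers were positive in all 18 kept, with a median of 0.48, and 3 had no overlap, against 2.49% of all genes higher without overlap. Pecam1 was at 885, 992 and 1605 in WT and at 2195, 2240 and 1633 in HET. Cldn5 was at 31.4, 65.5 and 67.8 in WT and at 107.1, 98.8 and 84.2 in HET. Lyve1, of lymphatic vessels, was at 0.87, 55.1 and 168.1 in WT and at 221, 388 and 253 in HET. Cdh5 and Kdr, which define endothelium, overlapped. The mean log2 level of the list was 5.96 to 7.54 in WT and 7.68, 7.61 and 7.43 in HET, within or just above the WT range.

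Macrophage markers had a median of 0.00 over 23 genes, with 10 positive. They went in both directions. Of the 23, 1 was higher and 2 were lower without overlap, against 2.49% and 2.39% of all genes. Timd4, a phagocytic receptor of tissue macrophages, was at 3.48 to 144.2 in WT and at 221, 345 and 154 in HET. Fcgr1, an Fc receptor, was at 42.7 to 72.5 in WT and at 27.9, 22.9 and 41.3 in HET, and Trem2 was at 56.0 to 151.3 in WT and at 37.2, 9.80 and 52.2 in HET. Neutrophil markers were positive in 10 of 11, with a median of 1.29, and adipocyte genes in 9 of 10, with a median of 2.27. Both lists had 0 members without overlap, against 2.49% of all genes higher and 2.39% lower. Stromal genes had a median of -0.16. The part of these other cell types in the differences above was not tested.

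Differences were not spread evenly over the chromosomes. The share of genes higher in all HET tumours was 7.65% on chromosome 18 and 5.06% on chromosome 6, against 2.49% overall. The share lower was 5.51% on chromosome 17, 5.39% on chromosome 14, 4.39% on chromosome 19 and 4.32% on chromosome 15, against 2.39% overall. Single tumours had shifts of whole chromosomes, some of them at these places, as medians over genes relative to the 9 tumours on the log2 scale. HET_early_3 was at 0.39 on chromosome 18 and HET_early_4 at 0.29 on chromosome 6, whereas HET_early_1 was at 0.05 and -0.05 there. WT_early_2 was at 0.49 on chromosome 17, and WT_early_3 and WT_early_5 were at 0.32 and 0.36 on chromosome 14. WT_early_5 was also at 0.40 on chromosome 15. On chromosome 19, WT_early_3 was at -0.19 and HET_early_3 at -0.14. Shifts also lay where the shares were not raised. WT_early_2 was at 0.44 on chromosome 3 and 0.43 on chromosome 12, where 0.828% and 1.42% of genes were lower without overlap. HET_early_1 was at 0.27 on chromosome 12, where 1.02% were higher. WT_early_3 was at -0.59 on chromosome 13, where 2.38% were higher. Klra1, St3gal5, Gimap1 and Gimap6 lie on chromosome 6, and Bin1, Spry4 and Pcdhac1 on chromosome 18. Ap1g2 and Kcnk5 lie on chromosome 14, Mapk12 and Fbxl6 on chromosome 15, and Ptprs on chromosome 17. The part of these shifts in the gene differences was not tested.

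**Figure D4:**
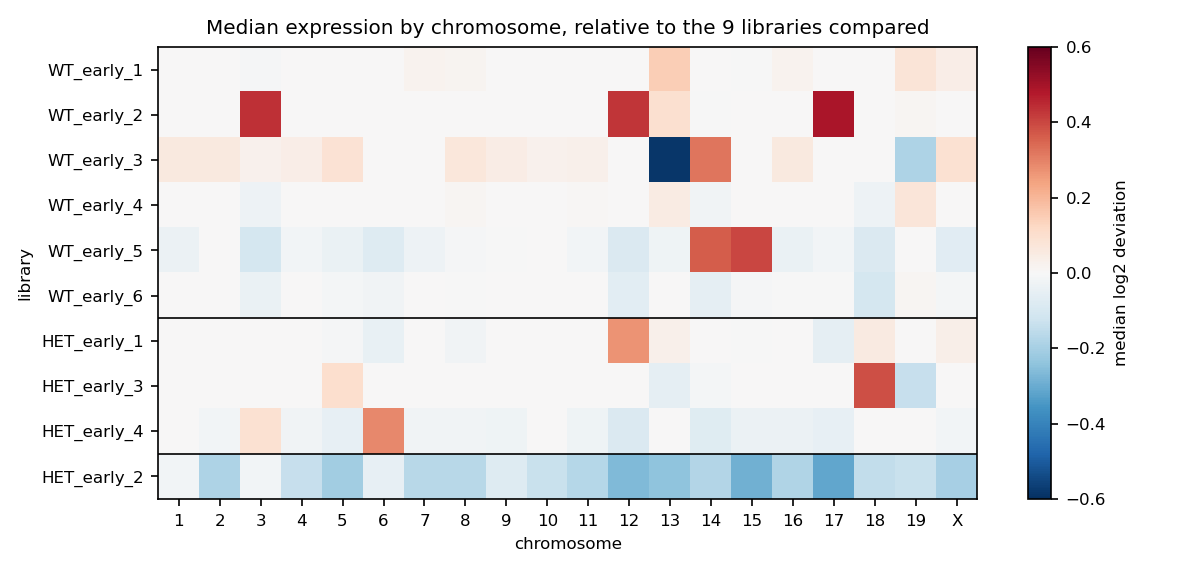
Rows are the 9 tumours compared and, at the bottom, HET_early_2, columns are chromosomes, and the colour is the median log2 deviation of expressed genes from the 9-tumour level. Most chromosomes lie near 0, and the strongest cells are WT_early_3 on chromosome 13 at -0.59 and WT_early_2 on chromosome 17 at 0.49.

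The 10 tumours outside the comparison were placed against the genes that separated the early groups. The genes were chosen on the 9 early tumours, and each further tumour was placed against the 6 early WT values, a step added after values were seen. The same WT values thus helped to choose the genes, which can raise their share above that of all genes in any tumour. Every tumour outside the comparison exceeded the share of all genes in both directions. The least was WT_late_5 among the higher genes, at 16.6% against 14.7%. Of the 361 genes higher in all 3 early HET tumours, 285 (78.9%) lay above the early WT range in WT_late_3, against 14.5% of all genes. Of the 347 lower genes, 204 (58.8%) lay below that range, against 15.3% of all genes. This tumour, of the wild-type genotype and with Bptf at 2586, had Klra1 at 737, Bfsp2 at 1433, Pcdhac1 at 24.1, St3gal5 at 322 and Atg9b at 44.6. It lay outside the early WT range, in the early HET direction, for all 10 named higher genes and 8 of the 10 named lower genes. RP23-219K12.1 did not follow this, at 2.41 in WT_late_3 but 137 in HET_late_1 and 234 in WT_late_1.

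The late HET tumours lay within the span of the late WT tumours. The share of higher genes above the early WT range was 27.1% to 49.3% in the 4 late HET tumours, against 18.1% to 28.7% of all genes, and 16.6% to 62.3% in the other 4 late WT tumours, against 14.7% to 24.6%. HET_early_2, which has the genotype but little B-cell RNA, had 67% of the higher genes above the range and 70.6% of the lower genes below it, but also 36.4% and 35.2% of all genes. It had Klra1 at 0 and Bfsp2 at 2.66, below the early WT tumours or level with them. The test of the genotype difference in early minus late tumours called 0 of 14682 genes with limma, with 1001 at an unadjusted p under 0.05 (6.82%). For Klra1 this difference was 8.08 with an unadjusted p of 0.0019 and an adjusted p of 0.636.

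**Figure D5:**
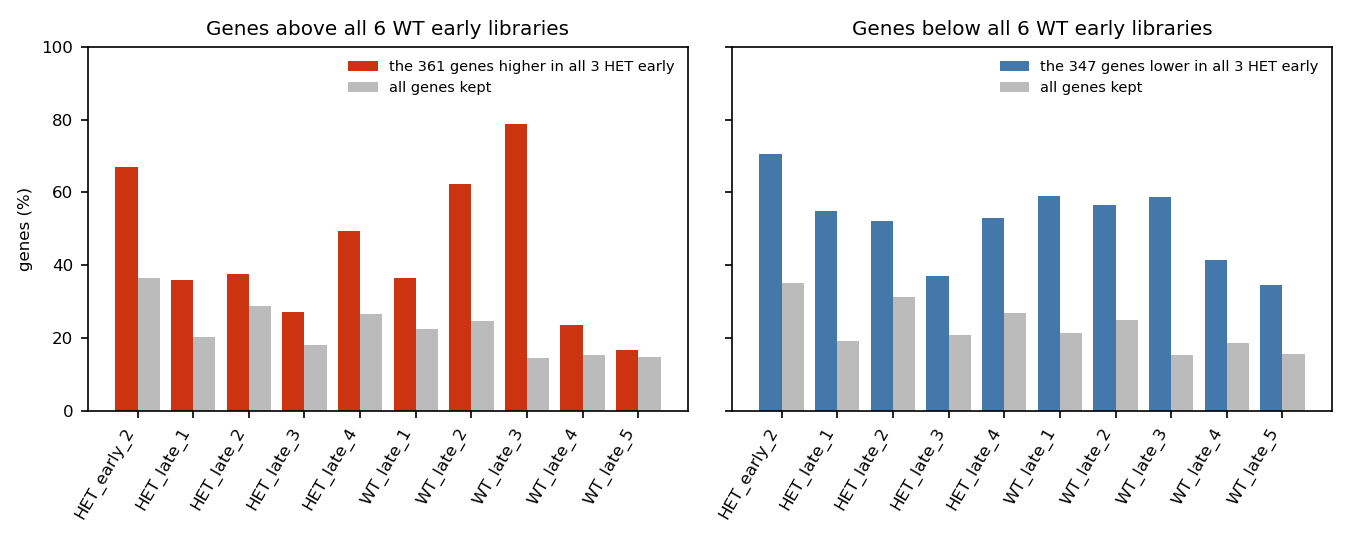
Bars are percentages of genes, for each of the 10 tumours outside the comparison, that lie above (left) or below (right) all 6 early WT values. Coloured bars are the 361 and 347 genes whose early groups do not overlap and grey bars are all 14525 genes, and WT_late_3 has the tallest coloured bar on the left, at 78.9%.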

How the data were processed

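Polyadenylated RNA of 19 mouse lymphomas was sequenced after a TruSeq preparation, per the labels' protocols. The submitters' processing notes name TopHat2 2.1.1, FastQC 0.11.5, Cuffdiff, Cuffnorm and Cufflinks 2.2.1, and the builds GRCm38 and mm10. The sources used here do not state which tool made the table. The authors deposited a normalised signal for 21086 genes, and dividing each library by its own step recovered whole reads for 100% of values (tolerance 0.01 reads). They also deposited log2 fold changes and adjusted p-values, quoted only as the authors' deposited table.

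Genes with a mean of at least 5 over the 9 libraries were kept (14525). Values were compared as log2(value + 1) with limma 3.58.1 (trend) in R 4.3.3, without covariates, and called at a Benjamini-Hochberg adjusted p under 0.05. Folds on that scale understate changes of weakly expressed genes. edgeR 4.0.16 (quasi-likelihood) and DESeq2 1.42.0 were run on recovered reads, and 84 arrangements gave the exact tests. The methods were tested on simulated data. No 2 of the early libraries repeated each other (45 pairs, chi-square of at least 31.2 per gene). Each library is a separate tumour in the labels.

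Genes were named by rule: Bptf, Myc, the called genes filled to 10 in each direction by the smallest p, and up to 4 members of each described list, passing over predicted or clone-named genes and any whose higher group mean was below 20. Members and the 42 lists were chosen with earlier results of these data known. Coordinates come from GENCODE M21 (16075 symbols with 1 position) and promoters from RefSeq; 14 of the 20 genes named by rank had a promoter entry. The labels do not assign libraries to the 2 protocol versions they mention, which prevents comparison within a batch. Alternatives are listed in the closing section. A few genes that the rule took are not reported here.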

Additional observations from a re-analysis of the deposited data

Results flagged for a closer look

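Among the 6 early WT tumours, 3 mean log2 levels of marker lists had 1 tumour far from the rest; chance flags about 1 in 20 groups. WT_early_5 had pro-B and pre-B markers at 10.1, against 6.07 to 7.53 in the other 5, and cartilage genes at 8.73, against 1.52 to 2.38. WT_early_6 had salivary gland genes at 11.1, against 2.38 to 5.27.

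HET_early_2, which was outside the comparison, stood above the 9 tumours compared in 6 lists of other cell types, and also in several lists of signal and stress genes. Its mean log2 levels were 14.5 for cartilage genes, 14.6 for skeletal muscle genes, 12.7 for stromal genes, 10.03 for macrophage markers, 9.94 for erythroid genes and 9.05 for endothelial markers. The highest values among the 9 were 8.73, 8.80, 9.15, 8.89, 7.23 and 7.68.

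WT_late_3, also outside the comparison, lay above the early WT range in 78.9% of the genes higher in all 3 early HET tumours. The other tumours outside the comparison had 16.6% to 67%.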

How the results depend on the processing

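The count of called genes, 6 as reported, was not stable. It was 11 with a pseudocount of 8, 1 with a minimum mean of 50, 147 with array weights, 2 with edgeR and 196 with DESeq2. It was 0 with the 4 group means fitted together over 18 libraries (smallest adjusted p 0.434, 638 genes at an unadjusted p under 0.05), 0 with HET_early_2 included (0.0999, 1709 genes) and 0 with log2 onset in weeks as a covariate (0.0502, 972 genes). Settings added after seeing the data, both with HET_early_2 included, gave 293 genes with DESeq2 and 0 with edgeR (2804 at an unadjusted p under 0.05). Leaving out 1 library gave 0 to 40 genes: 0 without HET_early_1 or HET_early_4, 3 without HET_early_3, 10 without WT_early_2 and 40 without WT_early_5. The cause of these changes was not tested, except that fewer libraries and genes were in some fits. The remaining settings with all 9 libraries gave 5 to 8 genes. Of the called genes, Bfsp2 passed in 17 of 22 alternatives, Klra1 in 16 of 22, RP23-219K12.1 in 15 of 21, Pcdhac1 in 13 of 20, St3gal5 in 8 of 22 and Atg9b in 7 of 22.

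Genes whose groups do not overlap numbered 708, and 496 with HET_early_2 included (252 higher and 244 lower). They numbered 780 to 1513 when 1 library was left out (WT_early_2 1188, WT_early_5 1401, HET_early_3 1454, HET_early_4 1513). Fewer libraries make the criterion easier to meet, so that rise does not measure stability. Myc ran from -0.523 to -0.227 with 1 library left out and was -1.03 with HET_early_2 included. Bptf kept its direction throughout, from -0.540 to -0.395 with 1 library left out. Without a HET library (-0.535, -0.395 and -0.521) its exact permutation p was 0.0714, the smallest possible. The 21 genes named by rank or call had 457 alternative values, 0 of them in the other direction. Adding HET_early_2 reversed Rag2 (-0.178), Rag1 (-0.383), Ebf1 (-0.0206), Irf4 (-0.562) and Bid (-0.224). The early against late test called 0 genes in every setting run. No paired analysis was possible because the labels give no replicate numbers.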

Other observations

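Genes read out by ERK signalling were examined after the values of Spry4 and Egr1 were seen, so they are described without a test. The list is a published set of 10 transcripts induced by the MAP kinase pathway, all 10 of which were kept. In 9 of 10 the difference was positive, the median was 2.55 against 0.00 over all genes, and in 3 the groups did not overlap, against 2.49% of all genes higher without overlap. Spry4, whose value prompted the list, is 1 of these 3. None of the 10 passed limma's adjusted p.

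Dusp6, the phosphatase that inactivates ERK, was at 85.2, 187.0 and 764.1 in WT (lowest, median, highest) and at 2301, 1451 and 1143 in HET. Etv5, an ETS factor, was at 30.4, 62.2 and 743.6 in WT and at 1579, 772 and 1045 in HET. With Spry4 these were the 3 genes without overlap. Dusp4 was at 3.48, 9.87 and 144.3 in WT and at 353, 97.1 and 207.1 in HET, and Etv4 at 0, 2.49 and 35.0 in WT and at 299, 20.4 and 67.4 in HET. Ccnd1 and Epha4 differed by 0.21 and -0.33. The limma adjusted p-values of the 10 ran from 0.14 to 0.949, and DESeq2 called Spry4 and Dusp6.

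WT_late_3 had Dusp6 at 2045, Etv5 at 1707, Etv4 at 392 and Spry4 at 686. The other 8 late tumours had Spry4 at 9.67 to 26.8 and Dusp6 at 67.1 to 824.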
